A study of Homo sapiens with 6 samples.

Results

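The genes described here are 10 that mark the epithelium of the colon: the transcription factors CDX1, CDX2 and HNF4A, the brush border protein VIL1, the keratins KRT8, KRT18, KRT19 and KRT20, and the surface proteins EPCAM and CDH1. They were taken by symbol from an RNA sequencing table of 14987 genes in HCT116, a human line established from a colorectal carcinoma. Rows were found for 9 of the 10, and CDX1 was not analysed here. The table came from 6 libraries: cells carrying the YAP knockdown construct shYAP1, cells carrying shYAP3 and NC cells, which the labels call wild type, each deprived of glucose for 6 h and each in control medium. NC therefore gave 1 library per medium. The study asked what glucose deprivation induces with and without interference with YAP, the coactivator that Hippo kinases restrain. The labels do not say whether a construct line was a clone or a pool, or whether libraries came from separate cultures, so p-values measure only the spread between these libraries, which may be technical.

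CDX1, CDX2 and HNF4A are DNA-binding regulators that set and keep the gene programme of the intestinal epithelium, CDX factors as homeobox proteins and HNF4A as a nuclear receptor. Villin bundles actin in the microvilli of the brush border. In simple epithelia KRT8, a type II keratin, pairs with a type I keratin, KRT18, KRT19 or KRT20, to build intermediate filaments, and KRT20 is characteristic of differentiated intestinal cells. E-cadherin, encoded by CDH1, joins neighbouring cells at adherens junctions, and EPCAM is a surface glycoprotein of epithelial cells that supports adhesion.

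Start-site windows are shown first, since CDX2 and HNF4A changed with deprivation. KRT20 was the 1 member whose shYAP and NC values did not overlap, and it did not pass for the knockdown. RefSeq windows of 300 bases, from 250 before to 50 after a start (GRCh38.p14), were matched for 4 of the 10 genes, CDX2, HNF4A, KRT8 and KRT20. Capitals mark TTTAT, the core bound by CDX factors, TGANTCA, the AP-1 site, and CACCTG, an E-box that SNAI and ZEB factors bind, on either strand, and none of the marked matches overlap. CDX2 lies on the minus strand at chr13:27969266-27969565. HNF4A has 2 windows on the plus strand, 45540 bases apart, at chr20:44355449-44355748 (upstream) and chr20:44400989-44401288 (downstream). KRT20 lies on the minus strand at chr17:40885193-40885492.
CDX2: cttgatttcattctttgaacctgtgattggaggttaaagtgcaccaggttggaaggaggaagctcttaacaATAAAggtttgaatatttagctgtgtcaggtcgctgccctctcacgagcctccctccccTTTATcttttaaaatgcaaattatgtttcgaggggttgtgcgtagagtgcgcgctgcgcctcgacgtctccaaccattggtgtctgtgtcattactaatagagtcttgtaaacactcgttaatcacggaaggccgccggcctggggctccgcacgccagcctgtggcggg
HNF4A upstream: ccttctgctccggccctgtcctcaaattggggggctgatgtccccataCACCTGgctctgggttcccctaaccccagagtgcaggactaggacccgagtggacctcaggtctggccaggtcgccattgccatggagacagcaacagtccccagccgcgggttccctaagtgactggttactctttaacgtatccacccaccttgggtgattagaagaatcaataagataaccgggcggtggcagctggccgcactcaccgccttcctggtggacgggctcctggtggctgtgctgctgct
HNF4A downstream: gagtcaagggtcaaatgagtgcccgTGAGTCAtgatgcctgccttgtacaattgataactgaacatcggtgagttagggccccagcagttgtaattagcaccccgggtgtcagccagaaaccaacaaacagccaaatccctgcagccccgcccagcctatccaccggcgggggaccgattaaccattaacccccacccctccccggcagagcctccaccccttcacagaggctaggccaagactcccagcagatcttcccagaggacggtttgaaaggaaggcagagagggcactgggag
KRT20: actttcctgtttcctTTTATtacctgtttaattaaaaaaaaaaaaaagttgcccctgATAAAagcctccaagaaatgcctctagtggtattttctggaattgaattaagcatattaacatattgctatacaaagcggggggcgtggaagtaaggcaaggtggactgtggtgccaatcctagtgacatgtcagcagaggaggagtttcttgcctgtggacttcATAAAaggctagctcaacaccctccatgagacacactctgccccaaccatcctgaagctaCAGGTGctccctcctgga

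The CDX core was found 2 times in the CDX2 window, 3 times in that of KRT20, and in neither HNF4A window. The AP-1 site was found in the downstream HNF4A window, and the E-box in the windows of KRT20 and upstream HNF4A. Over all 35116 RefSeq windows of this length, TTTAT was present in 34.9%, TGANTCA in 7.71% and CACCTG in 20.6%. The KRT8 window, not printed, held none of these. Another motif searched on both strands was the HNF4 site CAAAGTCCA, absent from all 5 windows and present in 0.384% of all windows. GGAATG, bound by TEAD factors, was found in the KRT8 window and in 14% of all windows, and TGATGNAA, an ATF4 element, in none of the 5 and in 3.62% of all windows. These matches are descriptions of letters only.

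The libraries held 16912634 to 22161075 listed reads, and a count of 3 reads, the level that a count of 0 allows, stood for 0.122 to 0.208 on the deposited scale. All values of a library were whole multiples of 1 step, so 1 factor scaled all its genes alike. How that factor was set is not described in the sources used here, and the values are not divided by length. YAP1, the target of the constructs, stood at 20.3 in shYAP1, 18.2 in shYAP3 and 154 in NC cells after deprivation, and at 35.7 in shYAP1, 38.2 in shYAP3 and 188 in NC cells in control medium. The deprived shYAP3 library stood apart from the others by transcript length. Its median log2 deviation from the gene means was 0.46 for the shortest 10% of genes and −0.30 for the longest 10%. In that order it was 0.15 and −0.08 in deprived shYAP1 cells and −0.08 and 0.05 in deprived NC cells. Control libraries lay at −0.20 to −0.16 and 0.10 to 0.12. The trend thus followed the medium in each line, and leaving out the deprived shYAP3 library does not remove it. Results are therefore also given without that library and with the trends over length and GC content removed. Of 6 leukocyte markers 4 had a row, with a summed 0.000815% to 0.00155% of reads after deprivation and 0.000626% to 0.00105% in control medium. For fibroblasts 3 of 7 had a row (0.000260% to 0.000622% after deprivation and 0.000919% to 0.00123% in control medium), and for endothelium 2 of 4 (2.96e-05% to 6.79e-05% and 5.94e-05% to 0.000113%). CD14, PDGFRB and KDR, 1 gene from each list, were at 0 in at least 1 library. In bulk RNA, fewer cells of a type and less RNA per cell cannot be told apart.

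The epithelial label of the line could be read from 8 of the 9 genes, which had at least 38 reads in every library, with VIL1 the lowest at 18 to 64 reads. Per kilobase of transcript, the deposited values of the control libraries put KRT8 first, at 951 ± 167 (SD, n = 3 libraries, as for all means here). KRT19 (574 ± 57.7) and KRT18 (541 ± 128) followed and did not differ beyond their spread. EPCAM stood at 125 ± 6.25 and CDH1 at 13.9 ± 1.21 per kilobase. The transcription factors were far lower, with CDX2 at 3.25 ± 0.290 and HNF4A at 1.12 ± 0.0977, and KRT20, at 2.64 ± 0.916, overlapped CDX2. VIL1 was last, at 0.238 ± 0.0684 per kilobase. After deprivation the per-kilobase means kept KRT8 first (1477 ± 64.6) and VIL1 last (0.310 ± 0.224), while KRT20 (3.95 ± 1.58) stood above CDX2 (1.76 ± 0.377). That order of KRT20 and CDX2 came from the shYAP lines, at 4.48 and 1.71 in shYAP1 and 5.19 and 1.42 in shYAP3. In NC cells both stood at 2.17. The 9 genes together took 0.456% to 0.615% of the reads of a deprived library and 0.392% to 0.516% of those of a control library, with 0.421% to 0.578% and 0.358% to 0.480% from the 4 keratins.

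**Figure D1:**
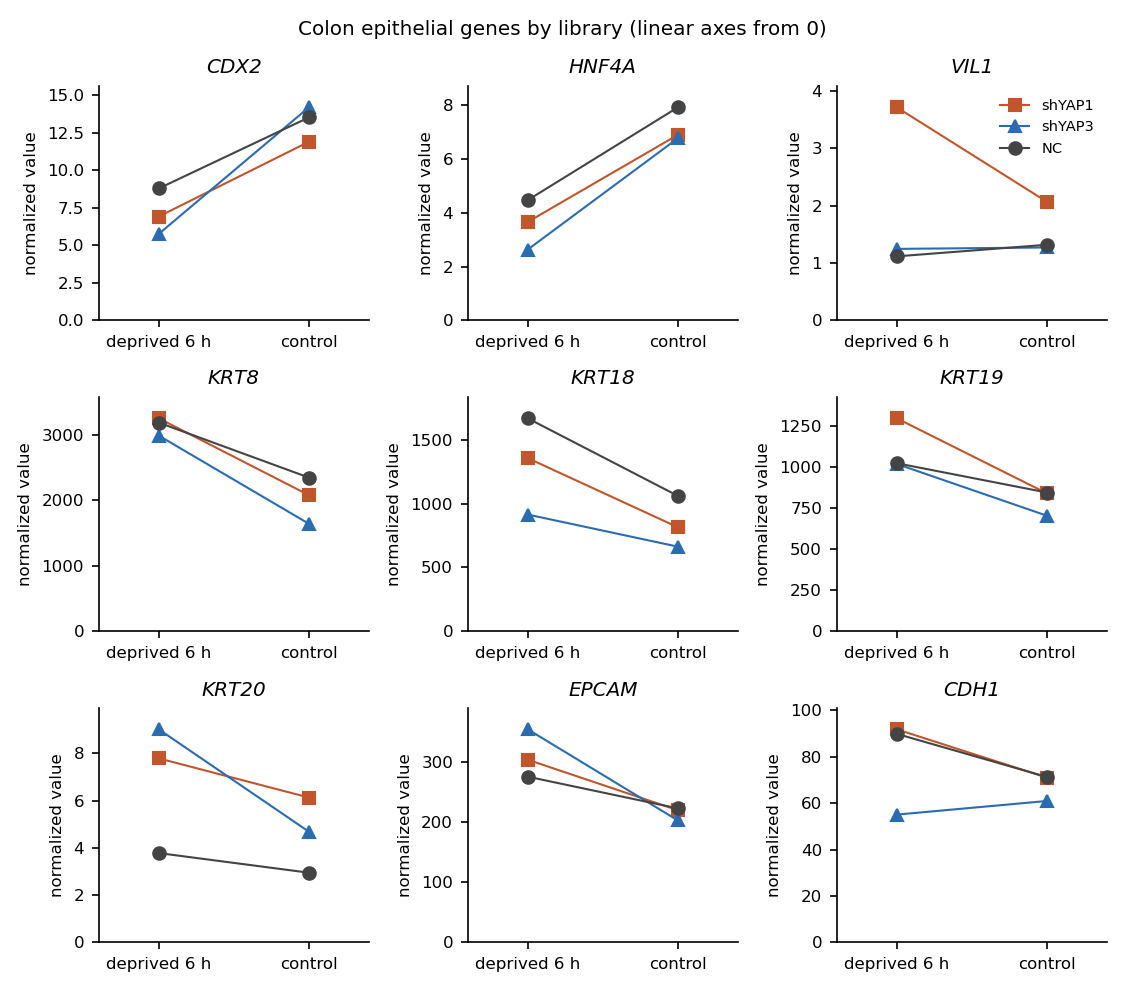
Deposited normalized value (vertical axes, linear from 0) of the 9 genes after 6 h without glucose and in control medium, with 1 point per library and a line joining the libraries of a cell line. CDX2 and HNF4A lie lower after deprivation in all 3 lines, and KRT8, KRT19 and EPCAM lie higher in all 3, with no overlap between the media.

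Glucose deprivation lowered both intestinal transcription factors and raised KRT8, KRT18 and EPCAM on the deposited scale. These rises did not pass with libraries scaled to their listed reads, with quantile normalization, or in most fits without 1 library. Of the 9 genes tested with limma, 3 passed at a Benjamini-Hochberg adjusted p of 0.05 as higher and 2 as lower, where 16.5% of all 12263 genes passed as higher and 15.6% as lower. Their median log2 fold change was 0.46, against 0.05 over all genes. Without overlap between the media, 3 of the 9 were higher and 2 lower, against 26.8% and 23.8% of all genes.

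CDX2 (ENSG00000165556), the homeobox regulator of intestinal identity, stood at 6.91 in shYAP1, 5.75 in shYAP3 and 8.78 in NC cells after deprivation. In control medium it stood at 11.9 in shYAP1, 14.2 in shYAP3 and 13.5 in NC cells. All 3 deprived libraries lay below all 3 control libraries, with 83 to 165 reads after deprivation and 293 to 312 in control medium. CDX2 averaged 7.15 ± 1.53 after deprivation and 13.2 ± 1.18 in control medium (SD, n = 3 each), and the log2 fold change was −0.81 (SE 0.16, 95% interval −1.18 to −0.45, limma adjusted p = 0.0077). By line, the log2 difference was −0.70 in shYAP1, −1.17 in shYAP3 and −0.57 in NC cells. The call held under all 8 other settings tried, with log2 fold changes of −1.09 to −0.52. It was lost in 1 of the 6 fits that left out a library, the one without the shYAP3 control library (log2 fold change −0.71, limma adjusted p = 0.061).

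HNF4A (ENSG00000101076), the nuclear receptor of gut and liver epithelium, followed CDX2 in direction and size. Its values were 3.66 in shYAP1, 2.63 in shYAP3 and 4.47 in NC cells after deprivation, against 6.90 in shYAP1, 6.77 in shYAP3 and 7.92 in NC cells in control medium. The highest deprived library was thus below the lowest control library, on 38 to 84 against 149 to 180 reads. Means were 3.59 ± 0.920 after deprivation and 7.20 ± 0.629 in control medium (SD, n = 3 each), and the log2 fold change was −0.85 (SE 0.16, 95% interval −1.22 to −0.49, limma adjusted p = 0.0067). HNF4A passed in all 8 other settings and in each of the 6 fits without a library, the largest adjusted p in limma being 0.047, without the shYAP1 control library. With the trends over length and GC content removed, both factors still passed and the sizes were smaller, at −0.46 (limma adjusted p = 0.019) for HNF4A and −0.52 (limma adjusted p = 0.012) for CDX2. Their transcripts lie at the 86.7th and 63.8th length percentiles of the genes, and the call on HNF4A and the call on CDX2 both held without the deprived shYAP3 library (limma adjusted p = 0.0015 each).

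KRT8 (ENSG00000170421), the type II keratin of simple epithelia, had values of 3250.4 in shYAP1, 2987 in shYAP3 and 3185 in NC cells after deprivation, against 2078 in shYAP1, 1642 in shYAP3 and 2346 in NC cells in control medium. The 2 ranges did not overlap. Its log2 fold change was 0.65 (SE 0.17, 95% interval 0.26 to 1.04, limma adjusted p = 0.023) on the deposited scale. With libraries scaled to their listed reads it was 0.34 and did not pass (limma adjusted p = 0.087), nor did it without the filter on low values (limma adjusted p = 0.056), and with quantile normalization it was −0.00631 (limma adjusted p = 0.97). Within the lines, the share of reads taken by KRT8 after deprivation was 1.32 times that in control medium in shYAP1, 1.31 times in shYAP3 and 1.18 times in NC cells. KRT8 passed without the deprived shYAP3 library (limma adjusted p = 0.0063), and the 5 fits without another library gave adjusted p of 0.0504 to 0.133 in limma.

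KRT18 (ENSG00000111057), the type I partner of KRT8, had values of 1355 in shYAP1, 914 in shYAP3 and 1666 in NC cells after deprivation, against 814 in shYAP1, 663 in shYAP3 and 1060 in NC cells in control medium. Each line was higher after deprivation, but the media overlapped, since the deprived shYAP3 value lay below the NC control value. The log2 fold change was 0.62 (SE 0.18, 95% interval 0.20 to 1.03, limma adjusted p = 0.033). It was 0.31 (limma adjusted p = 0.21) with scaling to listed reads and 0.07 (limma adjusted p = 0.75) with quantile normalization, so that neither passed, and without the filter on low values the adjusted p in limma was 0.059. Leaving out the deprived shYAP3 library gave 0.78 (limma adjusted p = 0.00064), and leaving out any of the other 5 gave an adjusted p of 0.078 to 0.158 in limma. KRT8 and KRT18 overlap on opposite strands of chromosome 12 and have 50 and 68 annotated pseudogenes. A strand setting is not given in the sources used here, so reads of these genes could have been split or shared.

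KRT19 (ENSG00000171345), a type I keratin of simple epithelia and ducts, had values of 1299.7 in shYAP1, 1021 in shYAP3 and 1026 in NC cells after deprivation, against 842 in shYAP1, 706 in shYAP3 and 847 in NC cells in control medium. The ranges did not overlap, yet the test missed the threshold on the deposited scale, at 0.48 on the log2 scale (SE 0.17, limma adjusted p = 0.054). With the cell line as a replicate block it passed (limma adjusted p = 0.039), as it did without the deprived shYAP3 library (0.55, limma adjusted p = 0.0075). KRT20 (ENSG00000171431), the keratin of differentiated intestinal cells, had 7.78 in shYAP1, 9.01 in shYAP3 and 3.78 in NC cells after deprivation, against 6.13 in shYAP1, 4.68 in shYAP3 and 2.95 in NC cells in control medium. KRT20 was higher after deprivation in every line, but the media overlapped, and its log2 fold change of 0.46 (SE 0.17) did not pass (limma adjusted p = 0.058, and 0.0504 with the replicate block). It passed with quantile normalization (0.54, limma adjusted p = 0.037) and without the mean-variance trend of the test (limma adjusted p = 0.0494), and without the deprived shYAP3 library it was 0.38 (limma adjusted p = 0.069).

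EPCAM (ENSG00000119888), the epithelial surface glycoprotein, had values of 303 in shYAP1, 354 in shYAP3 and 275 in NC cells after deprivation, against 219 in shYAP1, 202 in shYAP3 and 222 in NC cells in control medium. Control values lay close together and every deprived value was above them. The log2 fold change of EPCAM was 0.52 (SE 0.14, 95% interval 0.20 to 0.85, limma adjusted p = 0.024), which was 0.22 (limma adjusted p = 0.21) with scaling to listed reads and 0.26 (limma adjusted p = 0.106) with quantile normalization. With the length and GC trends removed it was 0.31 and passed (limma adjusted p = 0.030), as it did without either deprived shYAP library (limma adjusted p = 0.0049 without shYAP3 and 0.024 without shYAP1). Without the deprived NC library or any of the control libraries the adjusted p in limma was 0.059 to 0.147.

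CDH1 (ENSG00000039068), encoding E-cadherin, did not pass. It had 91.9 in shYAP1, 55.1 in shYAP3 and 89.9 in NC cells after deprivation, against 71.0 in shYAP1, 61.0 in shYAP3 and 71.4 in NC cells in control medium. Deprived shYAP3 was the lowest of the 6 libraries, while the other deprived libraries were the highest. The log2 fold change was 0.18 (SE 0.19, 95% interval −0.25 to 0.62, limma adjusted p = 0.48), and without the deprived shYAP3 library it was 0.41 and passed (limma adjusted p = 0.0070). VIL1 (ENSG00000127831), villin, had 3.72 in shYAP1, 1.25 in shYAP3 and 1.12 in NC cells after deprivation, against 2.07 in shYAP1, 1.27 in shYAP3 and 1.32 in NC cells in control medium. Only shYAP1 cells had more VIL1 after deprivation, and the log2 fold change of 0.16 (SE 0.27, 95% interval −0.46 to 0.78) did not pass (limma adjusted p = 0.68), nor did 0.42 without the deprived shYAP3 library (limma adjusted p = 0.16). VIL1 overlaps USP37, also in the table, on the opposite strand.

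**Figure D2:**
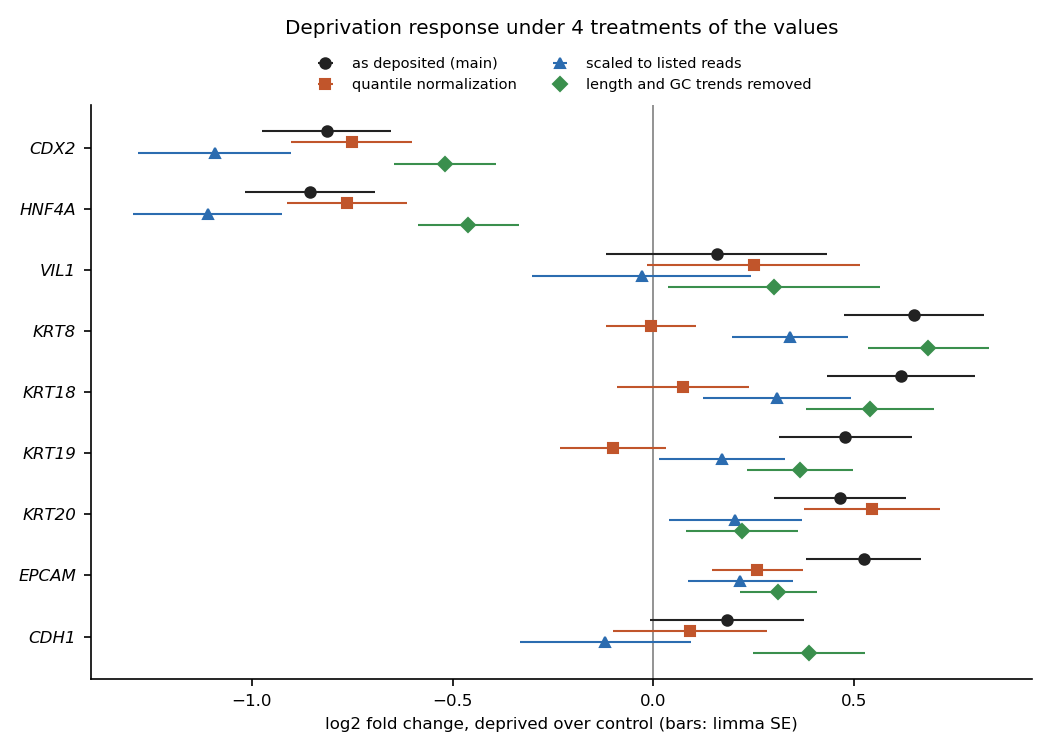
Log2 fold change of each gene, deprived over control (horizontal axis), with limma standard errors as bars, for the deposited scale, quantile normalization, scaling to listed reads and removal of length and GC trends. CDX2 and HNF4A stay between −1.11 and −0.46 under all 4, while KRT8 lies between −0.00631 and 0.69.

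The scalings acted in different ways. With libraries scaled to their listed reads, the median log2 fold change of all genes was −0.24 and the calls split into 749 higher and 3802 lower genes, against 2018 higher and 1918 lower on the deposited scale. Relative to that median, CDX2 stood at −0.86, HNF4A at −0.87, KRT8 at 0.58, KRT18 at 0.55 and EPCAM at 0.45, against −0.86, −0.90, 0.60, 0.57 and 0.48 in that order on the deposited scale. Quantile normalization left the median of all genes near 0 (0.0091), and relative to it KRT8 stood at −0.015, KRT18 at 0.065, KRT19 at −0.11 and EPCAM at 0.25. CDX2 stood at −0.76 and HNF4A at −0.77, and both passed.

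KRT19, KRT18, EPCAM, KRT20 and KRT8 lie at the 10.5th to 26.9th length percentiles, and CDX2, CDH1, HNF4A and VIL1 at the 63.8th to 87.1st, so that both members that fell were among the longer ones. With length and GC trends removed, KRT8 was at 0.69 (limma adjusted p = 0.0076) and KRT18 at 0.54 (limma adjusted p = 0.026). The other members with shorter transcripts came out smaller than on the deposited scale, with EPCAM at 0.31, KRT19 at 0.37 (limma adjusted p = 0.055) and KRT20 at 0.22 (limma adjusted p = 0.24). CDH1, at 0.39 (limma adjusted p = 0.053), and VIL1, at 0.30 (limma adjusted p = 0.40), came out larger, and neither passed.

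Ratios between members inside 1 library do not change when all its values are multiplied by 1 factor. Quantile normalization is not such a factor, and the ratios were formed from the deposited values only. EPCAM over CDX2 was 43.9 in shYAP1, 61.5 in shYAP3 and 31.3 in NC cells after deprivation, against 18.4 in shYAP1, 14.3 in shYAP3 and 16.5 in NC cells in control medium. KRT8 over CDX2 was 470 in shYAP1, 519 in shYAP3 and 363 in NC cells after deprivation, against 175 in shYAP1, 116 in shYAP3 and 174 in NC cells in control medium. Both ratios were thus higher after deprivation in each line, with no overlap, as the separate values of EPCAM, KRT8 and CDX2 already required. Both also set a shorter transcript against a longer one, and trends over length were not removed from them. The ratio of CDX2 to HNF4A moved less, at 1.89 in shYAP1, 2.18 in shYAP3 and 1.96 in NC cells after deprivation, against 1.72 in shYAP1, 2.09 in shYAP3 and 1.71 in NC cells in control medium. EPCAM over CDH1 lay between 3.06 and 3.32 in 5 libraries and at 6.42 in deprived shYAP3 cells. For KRT8 over KRT18, deprived shYAP3 was also the highest, at 3.27, with the others between 1.91 and 2.55.

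**Figure D3:**
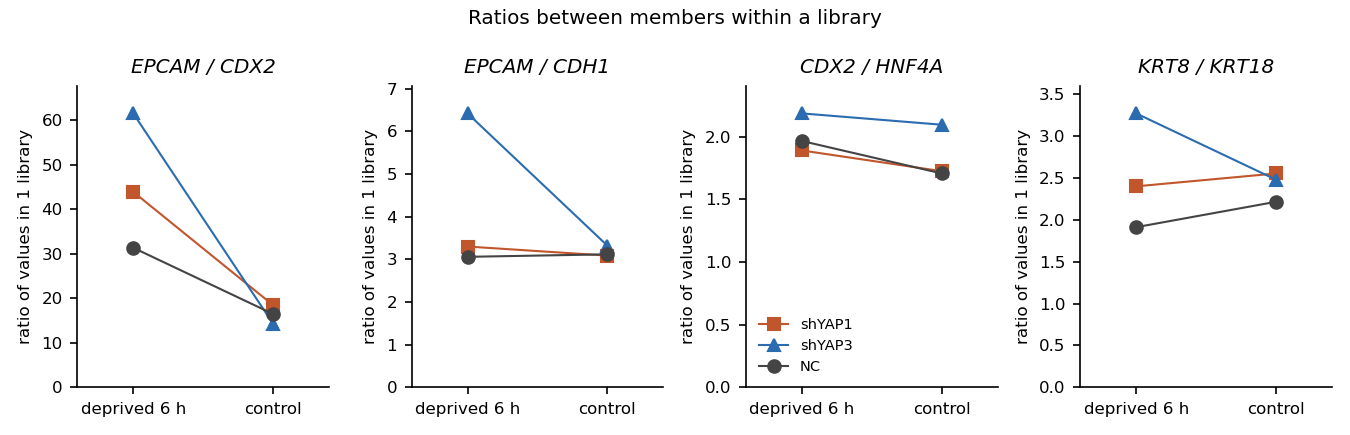
Ratio of deposited values between pairs of genes inside each library (vertical axes, linear from 0), after 6 h without glucose and in control medium, with 1 point per library joined by line. EPCAM over CDX2 is 31.3 to 61.5 in deprived and 14.3 to 18.4 in control libraries, whereas EPCAM over CDH1 stands out in the deprived shYAP3 library alone.

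None of the 9 genes passed for the knockdown of YAP over both media. In limma 2 of them, KRT20 and KRT18, had an unadjusted p under 0.05, and edgeR likewise called 0 of the 9 with 2 at that level. Over all genes limma called 1 gene (0.00815%), YAP1 itself, with 898 at an unadjusted p under 0.05, and edgeR called 1, with 891. KRT20 was the only member whose genotypes did not overlap, at 4.68 to 9.01 in the 4 shYAP libraries and 2.95 and 3.78 in the NC libraries, a direction without overlap in 4.83% of all genes. A further 6.04% of genes were lower in all shYAP libraries, no member among them. With 1 of 9 members without overlap, the members were not set apart from all genes. For KRT20 the log2 fold change was 0.83 (SE 0.18, 95% interval 0.43 to 1.23, limma adjusted p = 0.58). Libraries of both media from 1 line counted as separate replicates in this fit. The knockdown intervals therefore hold no spread between NC lines. On means, shYAP cells held 2.22 times the KRT20 of NC cells after deprivation and 1.83 times in control medium.

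KRT18 pointed the other way within each medium, with shYAP cells at 0.681 times NC cells after deprivation and 0.697 times in control medium. Its log2 fold change was −0.55 (SE 0.20, 95% interval −0.997 to −0.11, limma adjusted p = 0.58). As a share of the per-kilobase sum of the type I keratins KRT18, KRT19 and KRT20, KRT18 made up 48.0% in shYAP1, 44.2% in shYAP3 and 59.0% in NC cells after deprivation, against 46.1% in shYAP1, 45.4% in shYAP3 and 52.6% in NC cells in control medium. The share was thus lower in all 4 shYAP libraries than in either NC library, though the KRT18 values themselves overlapped between the genotypes. How often such shares separate in other genes was not tested. The other 7 genes had log2 fold changes between −0.30 (HNF4A) and 0.40 (VIL1). Their 95% intervals all covered 0, such as −0.69 to 0.09 for HNF4A and −0.62 to 0.15 for CDX2, and do not show that the lines were alike.

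KRT7, a type II keratin of many glandular epithelia that pathologists read together with KRT20, had lower values in the shYAP libraries of each medium than in NC cells. It stood at 4.99 in shYAP1, 5.55 in shYAP3 and 8.89 in NC cells after deprivation, against 1.91 in shYAP1, 2.00 in shYAP3 and 5.02 in NC cells in control medium. KRT20 over KRT7 was 1.56 in shYAP1, 1.63 in shYAP3 and 0.425 in NC cells after deprivation, against 3.21 in shYAP1, 2.34 in shYAP3 and 0.588 in NC cells in control medium. KRT7 had the smallest knockdown p of the other keratins, with a sign opposite to KRT20, and the ratio was formed after the values were seen. Its separation by genotype is therefore no further test, and over both media KRT7 itself overlapped between the genotypes. The knockdown log2 fold change of KRT7 was −0.84 (limma adjusted p = 0.58), and only its rise with deprivation passed (0.96, limma adjusted p = 0.0037).

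**Figure D4:**
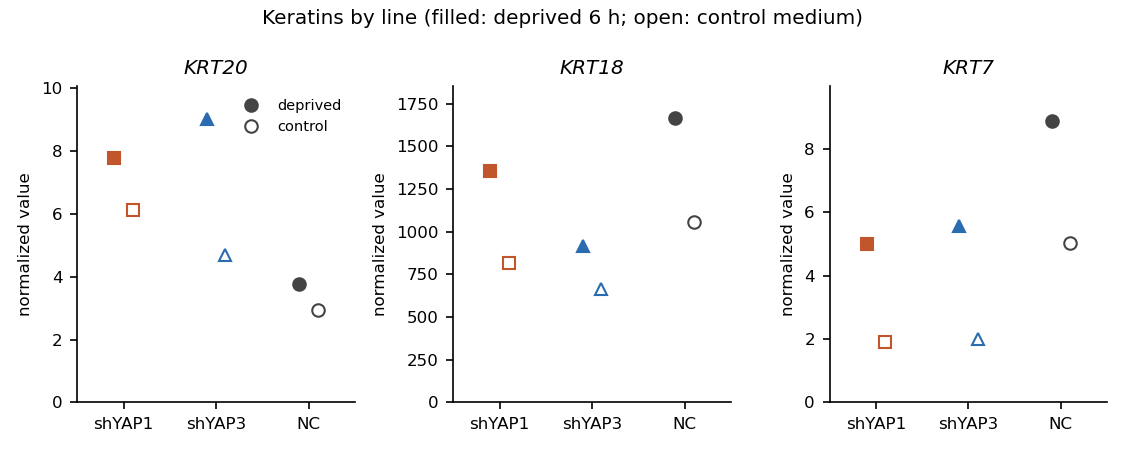
Deposited normalized values (vertical axes, linear from 0) of KRT20, KRT18 and KRT7 in the shYAP1, shYAP3 and NC lines, filled after 6 h without glucose and open in control medium, with 1 point per library. KRT20 is at 4.68 to 9.01 in shYAP lines and 2.95 and 3.78 in NC cells, and KRT7 is lower in both shYAP lines than in NC cells within each medium.

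The response to deprivation was then compared between shYAP and NC cells. No member and no gene passed in limma (0% of 12263), with 0 members and 111 genes at an unadjusted p under 0.05, and edgeR called 0 genes, with 119 at that level. Intervals were wide, since NC cells had 1 library per medium. For CDX2 the log2 response of shYAP cells minus that of NC cells was −0.37 (95% interval −1.20 to 0.47), and for HNF4A it was −0.22 (−1.09 to 0.64). EPCAM had 0.33 (−0.40 to 1.06) and KRT8 0.31 (−0.62 to 1.24). CDH1, at −0.22 (−1.28 to 0.84), passed as lower without the deprived shYAP1 library (−0.58, limma adjusted p = 0.014). In that fit each of the other arms held 1 library, so the spread came from the 2 shYAP control libraries alone, and the single deprived shYAP library was shYAP3, which stood apart by length. It called 1532 genes higher and 1207 lower.

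The 2 constructs were also set against each other, since their lines serve as the replicates of the knockdown. No member passed in limma or edgeR, with 1 (VIL1) at an unadjusted p under 0.05 in each, and 19 of all genes (0.155%) passed in limma, with 693 at that level, against 15 and 610 in edgeR. VIL1 had higher values in shYAP1 than in shYAP3 cells in both media, with a log2 fold change of 0.75 (95% interval 0.27 to 1.23, limma adjusted p = 0.33). CDH1 followed at 0.47 (−0.0076 to 0.95), and CDX2 differed least, at −0.0038 (−0.49 to 0.48). This fit left 1 residual degree of freedom, so its intervals rest mainly on a spread borrowed from other genes. They are not a measure of the spread of each member.

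Genes around the members were read from lists chosen for this tissue, 16 in all, with 111 further genes tested. Of these 111, 27 (24.3%) were higher and 16 (14.4%) lower after deprivation in limma, where all genes gave 16.5% and 15.6%, so that the lower share lay near that of all genes. The higher share includes genes, such as SNAI2, that passed the filter on low values only through deprived libraries. Among 16 intestinal and epithelial transcription factors, 3 were higher and 5 lower (median log2 fold change −0.10, against 0.05 over all genes). KLF5, a Krüppel-like factor of proliferating crypt cells, rose by 2.09 on the log2 scale and OVOL1, a repressor of mesenchymal genes, by 1.65, while GRHL2, an activator of epithelial junction genes, fell by 0.72. GATA6, a zinc finger factor of the gut, also fell. Of 10 brush border and enterocyte genes, 4 were higher and 0 lower (median 0.39), including PLS1, an actin bundler (0.83), EZR, a linker of membrane and actin (0.72), and EPS8 (0.56). In the crypt stem cell list 0 of 10 were higher and 3 lower (median −0.38): MSI1, an RNA-binding protein (−0.74), LGR4, an R-spondin receptor (−0.76), and EPHB3, an ephrin receptor (−0.86). FCGBP, a mucus protein, was the 1 goblet cell gene tested and fell by 0.65.

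Junction and filament genes around CDH1, EPCAM and the keratins gave calls in both directions, and the shares for tight junctions (22.2% higher, 11.1% lower) and the lower share for desmosomes (16.7%) lay near those of all genes. Of 12 adherens junction genes 1 was higher, VCL (1.27), which anchors actin, and 1 lower, PVRL1 (−1.19), a nectin, with MLLT4, the nectin partner afadin, at −0.41 without passing (median 0.13). Of 18 tight junction genes 4 were higher and 2 lower (median 0.17), with PARD6B, a polarity protein, at 1.86, OCLN, occludin, at 0.93 and MARVELD3 at −0.89. For the desmosome and its keratin linkers the count was 0 higher and 2 lower of 12 (median −0.01), PKP4 (−0.61) and the plakin EPPK1 (−0.90), and EVPL, envoplakin, at −0.73 did not pass. Other keratins were 5 higher and 0 lower of 9 (median 0.65), led by KRT80 (1.52), KRT16 (1.20) and KRT7. KRT16 reached a value of 1 in only 1 control library (1.01) and in every deprived library (2.08 to 3.54). KRT14, also among the 9, passed the filter only through deprived libraries, so count and median rest in part on the filter. Among 12 partners of EPCAM and epithelial splicing genes, 6 were higher and 1 lower (median 0.36): FHL2, which binds the EPCAM intracellular domain, rose by 2.13 and ADAM17, a protease that sheds EPCAM, by 0.81. Among 8 genes of mesenchymal transition, 3 were higher and 0 lower (median 0.10), namely ZEB1 (1.15) and SNAI2 (0.86), both repressors of CDH1, and VIM (0.63), vimentin. SNAI2 passed the filter on low values only through the deprived libraries (1.18 to 1.34, against 0.0909 to 0.365 in control medium). Its call and its part in the count are therefore no independent support.

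These list counts shifted with scaling. With libraries scaled to listed reads, higher and lower calls were 2 and 7 for transcription factors, 2 and 1 for the brush border, 0 and 8 for stem cell genes, 1 and 4 for adherens junctions, 2 and 6 for tight junctions and 0 and 6 for desmosomes. They were 3 and 0 for other keratins, 2 and 4 for the EPCAM list and 2 and 1 for the mesenchymal list. The medians of adherens junctions (−0.16), tight junctions (−0.13) and the mesenchymal list (−0.20) turned negative, and relative to the median of all genes they were 0.08, 0.10 and 0.04. For the 9 members the median was 0.17, or 0.41 relative to all genes. With quantile normalization the members' median was 0.074, or 0.065 relative to all genes. In that setting the median of the desmosome list was −0.29 and that of other keratins 0.64.

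Markers of other cell types gave few tested genes. COL1A1 of the fibroblast list had −0.75 and passed as lower, CD68 of the leukocyte list had 0.71 and passed as higher (limma adjusted p = 0.0499), KRT10 of the squamous list passed (0.55) and KRT14 did not (0.53), and NKX2-1 of the lung list had −0.23 without passing. No endothelial or liver gene was tested. The part of these in the members' values was not tested.

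None of the 111 further genes passed for the knockdown in limma or edgeR, with 12 and 15 at an unadjusted p under 0.05. The lists' smallest p-values belonged to SOX9 (log2 fold change −0.62) and FOXA3 (0.47) among transcription factors, CA9 (0.80) and DPP4 (0.69) among enterocyte genes, and MSI1 (−0.39) and MSI2 (−0.38) among stem cell genes. For junctions and filaments they belonged to CDH3 (−0.34) and JUP (−0.36), OCLN (−0.28) and CGNL1 (−0.38), PPL (−0.50) and PKP4 (−0.36), and KRT7 (−0.84) and KRT23 (0.54). In the remaining lists they were ESRP2 (−0.25), FN1 (−0.69), VIM (−0.22), FCGBP (−0.20), CD68 (0.49), KRT14 (0.28), COL1A1 (−0.11), KRT10 (0.03) and NKX2-1 (0.03). Between the constructs 2 of the 111 passed in limma and 1 in edgeR, and no gene passed in limma without the filter on low values. The 2 were RNF43, a Wnt receptor ligase, and KRT6A, both higher in shYAP1 than in shYAP3 cells.

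The profile most like each member over the 6 libraries was found by the root mean square difference of centred log2 values. HNF4A was nearest to MAVS (0.015) and ST6GAL1 (0.031), and CDX2 to ZMYM3 and PKD2 (0.052 each). EPCAM lay at 0.015 from HSP90AB1 and at 0.021 from HNRNPLL, CDH1 at 0.028 from TMEM8B and at 0.043 from SREBF1, and KRT19 at 0.041 from TM7SF2 and 0.043 from RCE1. The nearest genes of KRT8 were EML2 (0.074) and SLC1A5 (0.084), and those of KRT18 were PDLIM2 (0.083) and SOX9 (0.10). KRT20 lay at 0.097 from SERPINB5 and 0.10 from KBTBD8. VIL1 had the most distant neighbours of the 9, VGF (0.13) and MAFA (0.15).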

How the data were processed

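Messenger RNA was taken with oligo-dT beads, fragmented and sequenced on Illumina instruments, per the labels' protocols. Bowtie2, BWA and hg19 are named in the submitters' processing notes, without a role; a counter, annotation and strand setting are not given in the sources used here. The authors deposited a normalized signal per gene whose scaling is not described. All values (100%) were whole multiples of 1 read within 0.01 read, so reads were recovered. The 12263 genes that reached a value of 1 in 2 or more libraries were tested with limma 3.58.1 (R 4.3.3) on log2(value + 1), a scale that understates changes of low genes, with a mean-variance trend and Benjamini-Hochberg adjustment at 0.05. Deprivation and knockdown came from an additive model of genotype and medium, their difference from an interaction, and the constructs from the 4 shYAP libraries. As the values were normalized and not counts, edgeR 4.0.16 on recovered reads was an alternative only; for deprivation it called 1856 genes higher and 1992 lower. Other alternatives were quantile normalization, scaling to listed reads, no filter, a pseudocount of 0.1, no trend, removal of length and GC trends (loess), the cell line as a block and fits without each library in turn. The deprivation fit was tested on simulated data. The same cell line gave both media, which pairs the libraries; shYAP1 libraries deviated together with a correlation of 0.102. Lengths (GENCODE 29, GRCh38) were found for 98.0% of genes, and promoters are from RefSeq. Named genes were all members, the 3 genes of each list with the smallest p in the response and the 2 in the knockdown, and the 2 nearest profiles. Some genes that this rule takes are not reported here. Members and lists were chosen with earlier results of these data known, and KRT7's ratio to KRT20, the other genes that passed and RNF43 and KRT6A were named after their values were seen. Intervals of limma cover the spread between libraries, in part borrowed from other genes, and read floors cover counting error only.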

Additional observations from a re-analysis of the deposited data

How the results depend on the processing

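The falls of CDX2 and HNF4A passed under all 8 other settings. Members called higher after deprivation, 3 on the deposited scale, were 1 with quantile normalization, 0 with scaling to listed reads, 1 without the filter on low values, 4 without the mean-variance trend (KRT20 joining) and 0 to 5 without 1 library; members called lower, 2, were 1 to 2 without 1 library. In the paired fit, with the cell line as a replicate block, 4 members were higher and 2 lower, KRT19 joining (adjusted p = 0.039), and no other member's call changed. The difference of response had 0 to 1 members lower without 1 library. Signs turned in the response for VIL1 (−0.029) and CDH1 (−0.12) with scaling to listed reads, and for KRT8 (−0.00631) and KRT19 (−0.10) with quantile normalization. For the knockdown they turned for KRT19 (−0.085 with quantile normalization, −0.039 with listed reads, −0.017 without length and GC trends), EPCAM (−0.040) and COL1A1 (0.19) without those trends, and KRT10 (−0.024) with listed reads. KRT8 turned in the difference of response (−0.083, quantile). Between constructs, CDX2 turned with listed reads (0.0065) and a pseudocount of 0.1 (0.0042), and HNF4A (−0.0087) and EPCAM (0.072) without the trends.

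Without 1 library, log2 fold changes that turned ranged from −0.19 to 0.42 (VIL1) and −0.0028 to 0.41 (CDH1) in the response. In the knockdown they ranged from −0.078 to 0.25 (EPCAM), −0.14 to 0.17 (KRT19), −0.44 to 0.22 (COL1A1), −0.37 to 0.43 (KRT10) and −0.10 to 0.17 (NKX2-1). In the difference they ranged from −0.10 to 0.97 (VIL1), −0.34 to 0.23 (KRT18) and −0.58 to 0.15 (CDH1). Over all genes, the calls of the response, 2018 higher and 1918 lower, fell to as few as 473 and 584 without 1 library. Calls between constructs, 19, were 4 with listed reads, 0 without the filter and 162 without length and GC trends. Calls of the difference, 0, were 4 with the replicate block and up to 2739 without the deprived shYAP1 library, where the spread rests on the 2 shYAP control libraries. The knockdown called 1 gene, and 0 to 5 without 1 library. The causes were not tested. NC had 1 library per medium, which limits every comparison with it, and VIL1 had at most 64 reads.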
